A study of Mus musculus with 6 samples.

Results

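The genes described here encode the machinery that docks cytotoxic granules at the cell membrane and releases them. They are Rab27a, Sytl2, Unc13d, Stx11, Stxbp2, Vamp7, Vamp8, Lyst and Ap3b1, 9 of the 19938 genes measured, chosen by name. Each had exactly 1 probe set that the platform annotation assigns to a single gene symbol, so all 9 were measured and no choice between probe sets was needed. RNA was measured on 6 Affymetrix arrays. Of these, 3 came from sanroque mice, which are homozygous for a point mutation in Rc3h1, the gene of the mRNA-binding protein Roquin, and 3 came from wild-type mice (Roquin+/+). All mice were 10 weeks old on a C57BL/6 background, and CD8+ T cells low in the activation marker CD44 were sorted from spleen and lymph node. The mutation is carried by the whole animal and is not limited to T cells, and the labels do not say whether mice were pooled.

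Cytotoxic T cells kill by moving granules loaded with perforin and granzymes to the contact with a target cell and fusing them with the membrane. The small GTPase Rab27a and its effector Sytl2 tether granules at the membrane, and Unc13d primes them for fusion. Stx11, a syntaxin, and its Munc18-type partner Stxbp2 act in the fusion step, and Vamp7 and Vamp8 are SNARE proteins of the vesicle side. Lyst, a BEACH domain protein, shapes the size of lysosome-related granules, and Ap3b1 is a subunit of the AP-3 adaptor that sorts proteins into them. In humans, loss of UNC13D, STX11 or STXBP2 causes familial haemophagocytic lymphohistiocytosis, and loss of RAB27A, LYST or AP3B1 causes immunodeficiency with albinism.

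Transcripts of most of this machinery, 6 of the 9 genes, had an absolute log2 fold under 0.2 between the genotypes. Stx11 rose in sanroque cells (1.59-fold, log2 fold 0.67 ± 0.09, limma, Benjamini-Hochberg adjusted p = 0.0120), and Ap3b1 rose by a smaller amount at the edge of the threshold (1.23-fold, log2 fold 0.29 ± 0.07, limma, adjusted p = 0.0493). The other 7 genes did not pass, and 0 of the 9 fell. The test was limma's moderated fit over all 19938 genes, ± after a fold is its standard error, and a gene was called at an adjusted p below 0.05. The 2 calls are 22.2% of the 9 genes, against 5.77% of all genes called in either direction, and 3.26% called higher. All 9 lay above the median level of all genes. With only the 9969 genes above that level fitted, 1239 were called, 598 of them higher, and of the 9 only Stx11. With 9 genes, a single gene is 11.1% of the list, so the share is coarse. The median log2 fold of the 9 genes was 0.18, and that of all genes was -0.031. Without regard to sign, the median was 0.18 for the 9 genes and 0.089 for all genes. In 3 of the 9 genes all sanroque values lay above all wild-type values, against 9.46% of all genes, and in 0 of the 9 they lay below, while the groups were separate in either direction in 22.7% of all genes.

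**Figure D1:**
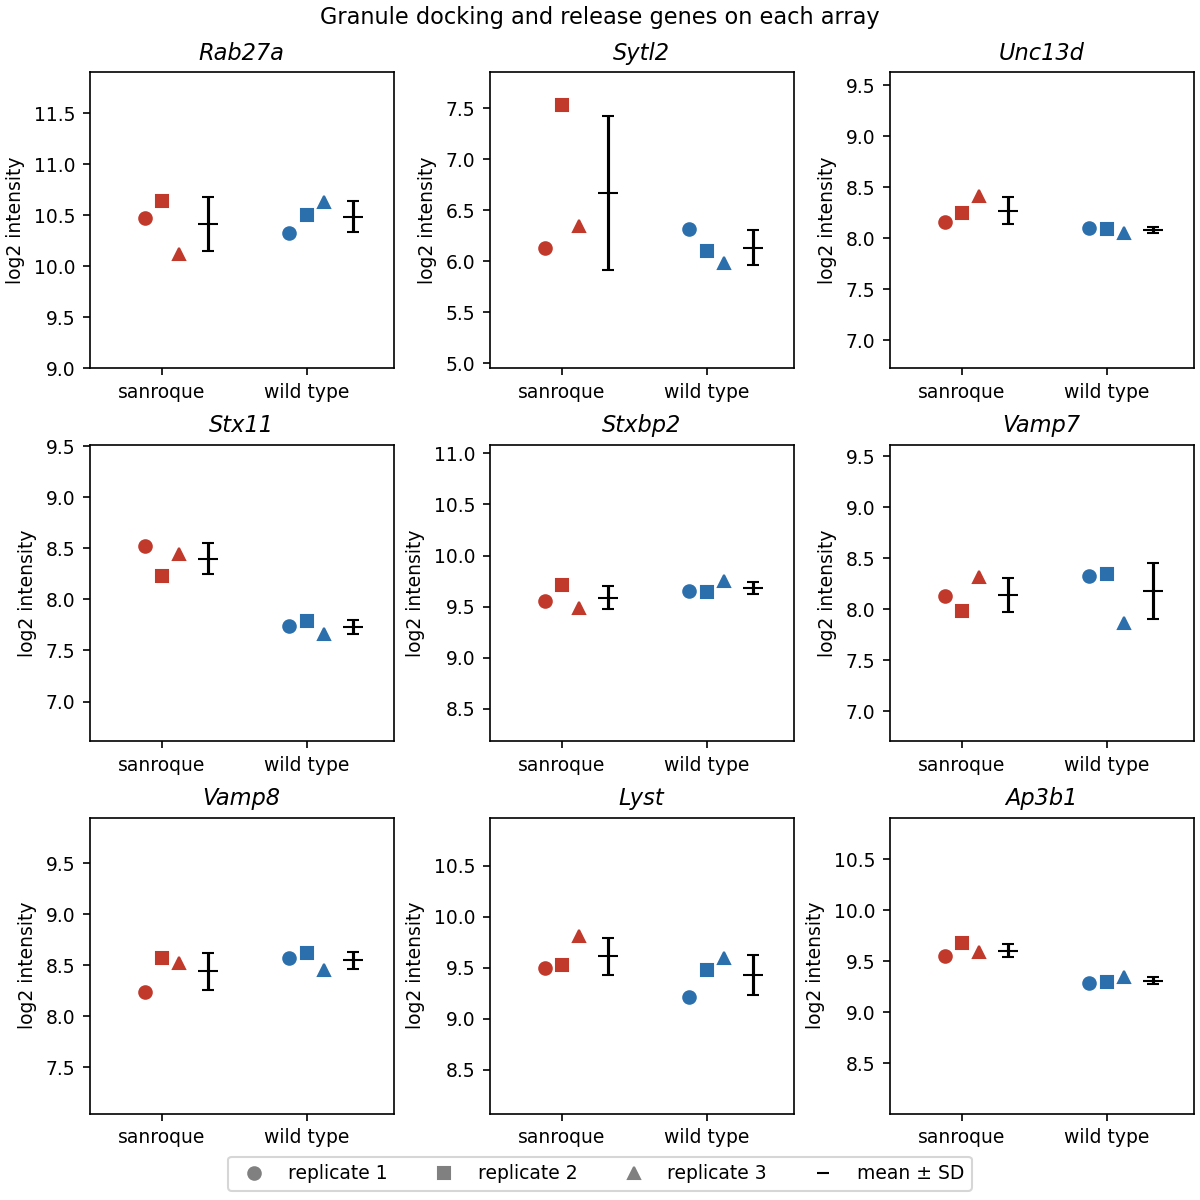
Log2 intensity of the 9 genes on each of the 6 arrays, with sanroque arrays in red on the left and wild-type arrays in blue on the right of each panel. Symbols mark replicates, black bars give mean ± SD (n = 3), and each panel spans the same height on the log2 scale. The groups are separate in Stx11, Ap3b1 and, narrowly, Unc13d, and 1 sanroque array stands alone in Sytl2.

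The arrays were checked before these values were read. Cd8a read 12.99 to 13.02 in sanroque and 13.00 to 13.05 in wild type, and Cd3e read 11.67 to 11.81 in sanroque and 11.74 to 11.90 in wild type, so markers of CD8+ T cells were present on all 6 arrays. Of 7 T cell genes 1, Cd3d, fell, and in 3 of the 7 (Cd3d, Cd3g and Cd2) all sanroque values lay below all wild-type values. Over all genes, 2.51% were called lower, and in 13.2% all sanroque values lay below all wild-type values. Rc3h1 read 9.98, 10.17 and 10.30 in sanroque and 9.93, 10.11 and 9.97 in wild type, and a point mutation need not change this level. Sanroque replicate 1 read 11.20 for Xist and 3.92 for the Y-linked Uty, while the other 5 arrays read 4.02 to 4.17 for Xist and 8.57 to 9.06 for Uty. That array therefore came from female cells and the others from male cells, although the labels give no sex. Markers of several cell types outside the sort gate were higher in sanroque, where 3.26% of all genes were called higher. The lists name genes by cell type, and whether CD8+ T cells themselves expressed them was not tested. The summed intensity of 10 neutrophil genes, Lcn2 and Ngp among them, was 5414 to 10461 in sanroque and 563 to 961 in wild type, and 8 of the 10 rose. For 8 monocyte and macrophage genes, such as Lyz2 and Fcer1g, it was 2869 to 2903 in sanroque and 570 to 880 in wild type, and 6 rose. For 9 B cell genes, such as Cd79b and Cd79a, it was 3723 to 4670 in sanroque and 1384 to 2689 in wild type. Of the 9, 5 rose (Ms4a1, Cd22, Blnk, Pax5 and Ighm), while Cd79b and Cd79a did not pass, with all sanroque values above the wild-type values. Of 6 plasma cell genes, such as Xbp1 and Jchain, 4 rose, and of 7 NK cell genes, such as Eomes and Adamts14, 3 rose (Eomes, Klre1 and Fcgr3). The NK receptor gene Ncr1 read 4.15 to 4.61 in sanroque and 4.13 to 4.84 in wild type, while Klrb1c, which did not pass, had a log2 fold of 0.94 with all sanroque values above the wild-type values. Of 6 CD4 T cell genes, such as Ikzf2 and Ctla4, 3 rose. Cd4 itself did not pass (log2 fold 0.95, limma, adjusted p = 0.0783), with all sanroque values above the wild-type values. Of 8 dendritic cell genes, such as Cst3 and Itgax, 1 rose (Itgax), as did 1 of 7 mast cell and basophil genes, such as Gata2 and Kit (Kit). Clec9a, Siglech, Zbtb46 and Cd209a did not pass (log2 folds 0.10, -0.029, -0.12 and -0.18). Nor did Fcer1a, Ms4a2 and Tpsb2 (0.0051, 0.045 and 0.0024), or Cd14 and Ms4a7 of the monocyte list (0.10 and 0.0044). Cst3, Xcr1, Mcpt8 and Cpa3 (0.36, 0.22, 0.57 and 0.18) did not pass, with all sanroque values above the wild-type values. Of 6 platelet genes, such as Treml1 and Itga2b, 0 rose or fell, and the 1 erythroid gene measured, Alas2, did not pass. Among wild-type arrays, replicate 2 had the highest sums of the neutrophil, monocyte, B cell and plasma cell markers. In bulk RNA of a sorted population, fewer cells of a type and less RNA per cell cannot be told apart.

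Stx11 gave the clearest difference. It read 8.52, 8.23 and 8.44 in sanroque replicates 1 to 3 and 7.74, 7.79 and 7.66 in wild type replicates 1 to 3 (log2 intensity). All 3 sanroque arrays were above all wild-type arrays, with a gap of 0.44 between the nearest values, and the mean was 8.40 ± 0.15 in sanroque and 7.73 ± 0.07 in wild type (SD, n = 3 each). The 95% interval of the difference ran from 1.37-fold to 1.85-fold. Stx11 is also expressed in monocytes and macrophages, whose markers are given above. Wild type replicate 2, with the most of these markers among wild-type arrays, read 0.057 above its group's mean for Stx11. The part of other cells in the Stx11 difference was not tested. Without wild type replicate 1 the log2 fold was 0.68 and did not pass (limma, adjusted p = 0.0698). Stx11 passed with any other single array left out. Without sanroque replicate 1, the female array and the highest for Stx11, the log2 fold was 0.61 (limma, adjusted p = 0.0340). With sanroque replicate 1 and wild type replicate 2 both left out it was 0.64 (limma, adjusted p = 0.0755), and over all 15 alternatives the adjusted p ran from 0.00143 to 0.0755.

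Ap3b1 had the smallest standard deviation within groups of the 9 genes, 0.052. It read 9.55, 9.68 and 9.59 in sanroque and 9.29, 9.30 and 9.35 in wild type (log2 intensity, replicates 1 to 3). The sanroque values all lay above the wild-type values, by 0.20 at the nearest. The mean was 9.60 ± 0.07 in sanroque and 9.31 ± 0.03 in wild type (SD, n = 3 each), with a 95% interval of the difference from 1.10-fold to 1.37-fold. The call did not hold when any single array was left out, with a log2 fold of 0.26 to 0.32 and adjusted p of 0.0684 to 0.194 (limma). With sanroque replicate 1 and wild type replicate 2 both left out the log2 fold was 0.32 and the adjusted p was 0.201 (limma), and over all 15 alternatives the adjusted p ran from 0.00275 to 0.201.

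**Figure D2:**
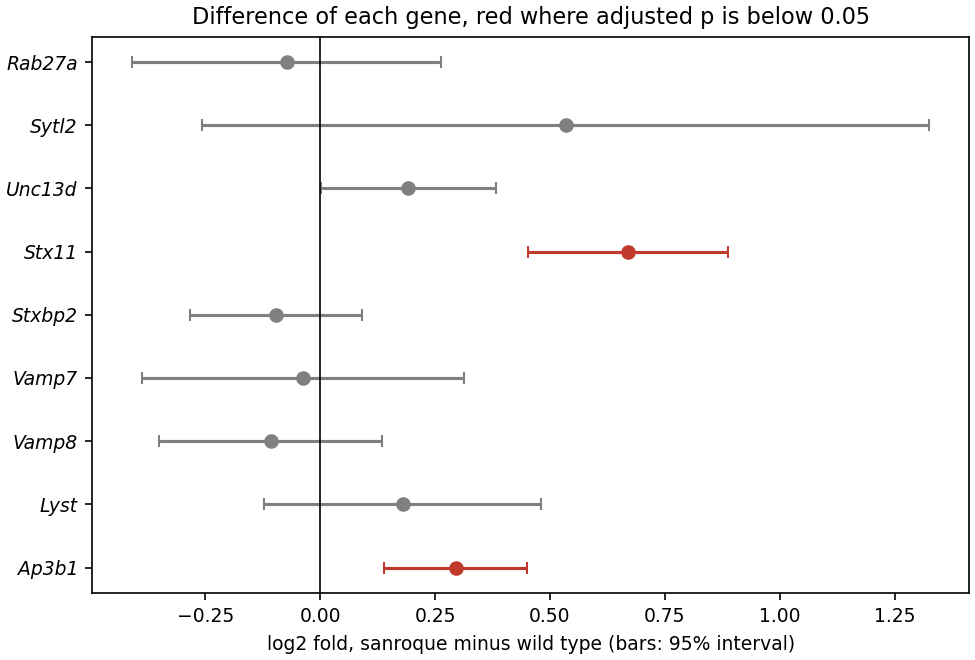
Log2 fold (sanroque minus wild type) of each of the 9 genes, with bars for the 95% interval of limma's moderated fit over 3 arrays a group. Stx11 at 0.67 and Ap3b1 at 0.29, in red, passed the adjusted threshold of 0.05, and the interval of Sytl2 is the widest, from -0.26 to 1.32.

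Both genes that passed were higher on all 3 sanroque arrays, which any 2 genes called higher with separate groups share. Within sanroque, Stx11 was highest on replicate 1 and Ap3b1 on replicate 2. The promoters of both are printed. They are 300 bases each, 250 before and 50 after the gene's start, from RefSeq on GRCm38.p6. Of the 9 genes, 6 had an entry. The Stx11 window is chr10:12964210-12964509 on the minus strand and the Ap3b1 window is chr13:94358710-94359009 on the plus strand, both written 5′ to 3′ along the gene. Capitals mark matches on either strand to GGGCGG, the box bound by SP and KLF factors.
Stx11: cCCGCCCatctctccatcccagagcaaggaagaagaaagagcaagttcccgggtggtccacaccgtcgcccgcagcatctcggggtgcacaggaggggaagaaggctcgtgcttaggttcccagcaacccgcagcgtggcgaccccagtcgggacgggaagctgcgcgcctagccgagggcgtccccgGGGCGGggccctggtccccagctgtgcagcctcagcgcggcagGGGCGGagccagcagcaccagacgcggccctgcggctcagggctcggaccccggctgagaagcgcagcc
Ap3b1: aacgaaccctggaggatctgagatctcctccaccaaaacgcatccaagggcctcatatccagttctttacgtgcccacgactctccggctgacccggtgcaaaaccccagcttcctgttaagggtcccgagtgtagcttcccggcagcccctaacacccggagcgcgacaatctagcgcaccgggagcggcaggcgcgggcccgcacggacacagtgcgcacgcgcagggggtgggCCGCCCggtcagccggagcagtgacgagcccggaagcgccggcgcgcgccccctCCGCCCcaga
The box occurs 3 times in the Stx11 window and 2 times in the Ap3b1 window, and 35.7% of 32851 RefSeq promoter windows of this length hold it. The windows hold 27 CpG in Stx11 and 32 in Ap3b1, against a median of 7 over all windows. Neither window holds GGAAGT (ETS factors, 23.8% of windows), TGACTCA (AP-1, 5.20%), TCACACC (T-box factors, 3.98%) or TTCNNNGAA (STAT factors, 8.30%) on either strand. These matches describe the letters of the windows only, and the motifs do not overlap one another.

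Of the tethering genes, Rab27a was measured at similar levels in both genotypes. It read 10.48, 10.64 and 10.12 in sanroque and 10.33, 10.50 and 10.63 in wild type (log2 intensity). The groups overlapped, and the log2 fold was -0.073 ± 0.14 (limma, adjusted p = 0.895), with a 95% interval from 0.753-fold to 1.20-fold. Its sign was not stable, with a log2 fold of 0.071 without sanroque replicate 3.

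Sytl2 was high on 1 array. It read 6.13, 7.53 and 6.35 in sanroque and 6.32, 6.10 and 5.98 in wild type (log2 intensity). Sanroque replicate 2 stood 1.18 above the next array, and sanroque replicate 1 lay within the wild-type range. The log2 fold was 0.53 ± 0.34 (limma, adjusted p = 0.510), and 0.10 without sanroque replicate 2. The interval, from 0.837-fold to 2.51-fold, includes a 2-fold difference, which those of the other 8 genes do not. The standard deviation of Sytl2 within groups, 0.55, was larger than that of 99.6% of all genes.

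The priming gene Unc13d had separate groups but a small difference. It read 8.16, 8.25 and 8.41 in sanroque and 8.10, 8.09 and 8.05 in wild type (log2 intensity). All sanroque values were above all wild-type values, with only 0.06 between the nearest, and the log2 fold was 0.19 ± 0.08 (limma, adjusted p = 0.260). The interval ran from 1.00-fold to 1.30-fold. With single arrays left out the log2 fold was lowest at 0.12, without sanroque replicate 3. Unc13d is also expressed in neutrophils, whose summed marker intensity was 5414 to 10461 in sanroque and 563 to 961 in wild type, and their part in the difference was not tested.

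Stxbp2, whose product binds the Stx11 protein, did not pass. It read 9.56, 9.71 and 9.49 in sanroque and 9.65, 9.65 and 9.75 in wild type (log2 intensity). The groups overlapped, with a log2 fold of -0.096 ± 0.08 (limma, adjusted p = 0.661) and an interval from 0.822-fold to 1.06-fold. The log2 fold was -0.16 when sanroque replicate 2 was left out, and -0.049 when sanroque replicate 3 was. The lower bound of the Stx11 interval, 1.37-fold, lies above the upper bound for Stxbp2, although the difference between the 2 genes was not tested.

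The vesicle SNARE genes overlapped between genotypes as well. Vamp7, which is X-linked in the mouse, read 8.13, 7.98 and 8.31 in sanroque and 8.33, 8.34 and 7.86 in wild type (log2 intensity). The lowest value was wild type replicate 3, and the female array lay in the middle of the range. The log2 fold was -0.038 ± 0.15 (limma, adjusted p = 0.953, interval 0.764-fold to 1.24-fold). Vamp8 read 8.23, 8.57 and 8.52 in sanroque and 8.57, 8.62 and 8.46 in wild type. Sanroque replicate 1 was the low array there, and the log2 fold was -0.11 ± 0.10 (limma, adjusted p = 0.720, interval 0.784-fold to 1.10-fold). With sanroque replicate 1 and wild type replicate 2 both left out the log2 folds were 0.049 for Vamp7 and 0.029 for Vamp8.

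Lyst read 9.49, 9.52 and 9.81 in sanroque and 9.21, 9.48 and 9.60 in wild type (log2 intensity). The groups overlapped, with wild type replicate 1 lowest and sanroque replicate 3 highest. The log2 fold was 0.18 ± 0.13 (limma, adjusted p = 0.579), and the interval ran from 0.919-fold to 1.40-fold. Leaving out wild type replicate 1, the lowest array, gave a log2 fold of 0.071. Leaving out sanroque replicate 3, the highest, gave 0.077.

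Of 9 granule cargo genes, 3 rose and 0 fell, or 33.3%, against 5.77% of all genes called in either direction and 3.26% called higher. The median log2 fold of the 9 cargo genes was 0.29. The 3 were the granzyme genes Gzma, Gzmb and Gzmk, whose differences were larger than those of the release genes. Gzma, a granzyme gene, read 10.37, 10.75 and 9.48 in sanroque and 5.32, 6.40 and 4.88 in wild type (log2 fold 4.67 ± 0.44, limma, adjusted p = 0.00354). Gzmb, the granzyme that activates caspases, read 9.44, 10.96 and 9.11 in sanroque and 5.37, 5.93 and 5.30 in wild type (log2 fold 4.30 ± 0.45, limma, adjusted p = 0.00459). Gzmk, a further granzyme gene, had a log2 fold of 2.92 ± 0.38 (limma, adjusted p = 0.00958). The lower 95% bounds for Gzma and Gzmb were 3.63 and 3.24 on the log2 scale, while the highest upper bound among the 9 release genes was 1.32. Prf1, which encodes perforin, read 9.43, 10.12 and 10.20 in sanroque and 9.68, 9.23 and 9.28 in wild type, and did not pass (log2 fold 0.52 ± 0.22, limma, adjusted p = 0.255). Srgn, Nkg7, Ctsc, Ctsw and Gzmm did not pass either. Their log2 folds ran from -0.30 for Ctsw, whose sanroque values all lay below the wild-type values, to 0.29 for Gzmm, whose sanroque values all lay above. Sanroque replicate 2, the high array for Sytl2, was also the high array for Gzma and Gzmb, but not for Prf1. The NK cell markers had a summed intensity of 875 to 1252 in sanroque and 475 to 550 in wild type. Eomes, the brightest of them, weighs most in this sum, at 9.22 to 9.85 in sanroque and 8.07 to 8.40 in wild type. Klre1, Fcgr3 and Klrb1c also had all sanroque values above the wild-type values. Ncr1, Klra8 and Adamts14 overlapped (log2 folds -0.12, 0.21 and 0.23). Wild type replicate 2 was the highest wild-type array for the NK cell sum, Gzma and Gzmb, and the lowest for Gzmk (5.14). The part of other cells in the granzyme differences was not tested.

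Beyond the 9 genes, 112 further genes of tethering, priming, fusion and granule formation were measured. Of these 4 rose and 3 fell, or 6.25%, close to the 5.77% of all genes. Of 12 genes of the Rab27 group and its effectors 0 passed. The nearest were the secretory GTPase genes Rab37 (log2 fold -0.39 ± 0.10, limma, adjusted p = 0.0666) and Rab3d (-0.26 ± 0.10, limma, adjusted p = 0.185). Of 13 Munc13 and Munc18 family genes 0 passed either. Baiap3, a Munc13 relative, read 7.63, 8.80 and 7.90 in sanroque and 6.99, 6.89 and 7.21 in wild type. Its groups did not overlap, and its log2 fold of 1.08 ± 0.28 missed the threshold (limma, adjusted p = 0.0731). The other nearest was Stxbp5, which encodes the syntaxin-binding tomosyn (0.35 ± 0.09, limma, adjusted p = 0.0741). Of 12 synaptotagmin and calcium sensor genes 0 passed, with Syt11 (0.37 ± 0.12, limma, adjusted p = 0.143) and Doc2g (-0.16 ± 0.07, limma, adjusted p = 0.279) nearest.

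Among 28 other SNARE and SNARE-recycling genes, 1 fell and 0 rose, or 3.57%, against 2.51% of all genes called lower. The 1 was Vamp1, a vesicle SNARE, which read 8.31, 8.12 and 8.43 in sanroque and 8.80, 8.71 and 8.67 in wild type (log2 fold -0.44 ± 0.09, limma, adjusted p = 0.0420). In 9 of the 28, or 32.1%, all sanroque values lay below all wild-type values, against 13.2% of all genes, and the list's median log2 fold was -0.10. The 2.51% and 13.2% are shares of all genes at any level, and most of the 28 lay above the median level of all genes. With only the 9969 genes above that level fitted, 641 were called lower, Vamp1 and Stx2 among them. Of 18 genes of granule transport and membrane 0 passed. The nearest were Lamp2, a lysosomal membrane protein gene, at a log2 fold of 0.67 ± 0.16 (limma, adjusted p = 0.0599), and Vps39, of the HOPS tethering complex, at 0.25 ± 0.09 (limma, adjusted p = 0.160).

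Of 21 other genes of the AP-3 and BLOC pathway, 2 fell and 0 rose, or 9.52%, against 2.51% of all genes called lower. In 8 of the 21, or 38.1%, all sanroque values lay below all wild-type values, against 13.2% of all genes. Ap3m2, a medium chain of AP-3, read 8.66, 8.81 and 8.97 in sanroque and 9.19, 9.27 and 9.33 in wild type (log2 fold -0.45 ± 0.09, limma, adjusted p = 0.0409). Bloc1s5, a subunit of the BLOC-1 complex that acts with AP-3, read 6.42, 6.49 and 6.47 in sanroque and 6.84, 6.92 and 6.98 in wild type (log2 fold -0.45 ± 0.07, limma, adjusted p = 0.0159). In neither gene did the groups overlap. The 2.51% and 13.2% are shares of all genes at any level, and most of the 21 lay above the median level of all genes. With only the 9969 genes above that level fitted, 641 were called lower, Ap3m2 and Bloc1s5 among them. Besides Ap3b1 and Ap3m2, no AP-3 subunit gene of the list passed. Ap3s2 had a log2 fold of -0.35 (limma, adjusted p = 0.0692) and Ap3b2 of -0.22, both with all sanroque values below the wild-type values, while Ap3d1, Ap3m1 and Ap3s1 had log2 folds of 0.0055, -0.035 and -0.065 and overlapped.

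In the BEACH domain family, to which Lyst belongs, 4 of 8 other members rose and 0 fell, against 5.77% of all genes called in either direction. Wdfy4, which is expressed in B cells and dendritic cells, read 8.13, 7.68 and 8.66 in sanroque and 6.04, 7.14 and 5.94 in wild type (log2 fold 1.79 ± 0.36, limma, adjusted p = 0.0366). Its high wild-type array was replicate 2, which was also the high one for the B cell markers, whose summed intensity was 3723 to 4670 in sanroque and 1384 to 2689 in wild type. The part of B cells in this difference was not tested. The other Wdfy4 probe set had a log2 fold of 1.16, and the mean of both gave 1.47 (limma, adjusted p = 0.0276). Nbeal2, needed for platelet granules, rose by 0.52 ± 0.11 (limma, adjusted p = 0.0434). Platelet markers had a summed intensity of 241 to 276 in sanroque and 248 to 290 in wild type, while neutrophil and monocyte markers were higher in sanroque as given above, and the part of other cells in the Nbeal2 difference was not tested. Wdfy3, an autophagy scaffold gene, rose by 0.39 ± 0.07 (limma, adjusted p = 0.0258), and Lrba, whose product guards CTLA4 from lysosomal loss, by 0.33 ± 0.07 (limma, adjusted p = 0.0471).

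These 7 calls were not stable to the choice of arrays. Of the 7, 0 passed without wild type replicate 1, sanroque replicate 1 or sanroque replicate 2. Without wild type replicate 2 Wdfy4 passed, without wild type replicate 3 Bloc1s5 and Wdfy3, and without sanroque replicate 3 all but Lrba and Wdfy4.

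**Figure D3:**
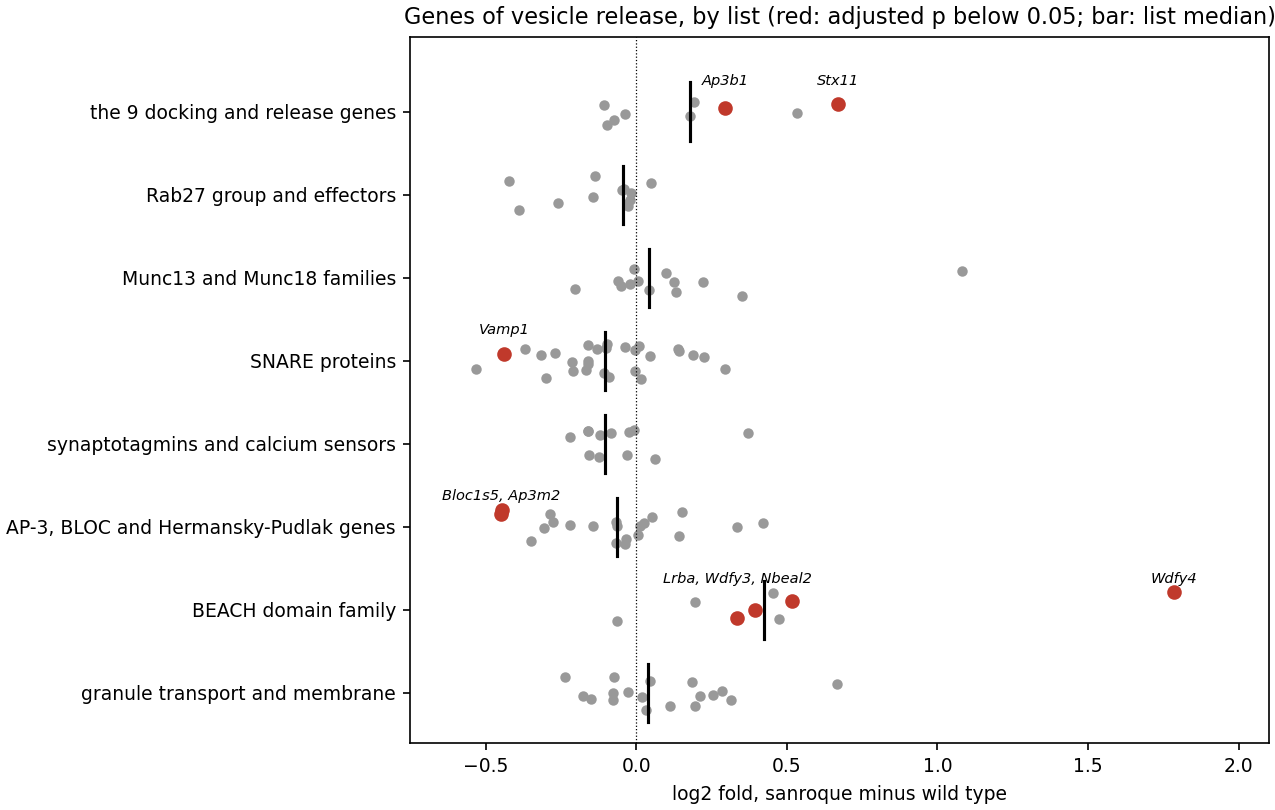
Log2 folds (sanroque minus wild type) of the 9 genes and of 7 lists of related genes, 1 point a gene, with the list median as a bar. Red points passed the adjusted threshold of 0.05, namely Stx11, Ap3b1 and 4 BEACH domain genes to the right of 0 and Vamp1, Ap3m2 and Bloc1s5 to the left.

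The genes whose values over the 6 arrays were most like those of the genes that passed were named by Pearson's r, as a description. For Stx11 they were Tlr13 (r = 0.996), an endosomal receptor gene of myeloid cells, Parpbp (0.994) and Nr4a1 (0.994), an early response gene. For Ap3b1 they were Adam8 (0.999), a metalloprotease gene, Car5b (0.998), a mitochondrial carbonic anhydrase, and N4bp1 (0.994). With 6 arrays in 2 genotypes such values come largely from the genotype difference, and 7 genes exceeded 0.99 for Stx11 and 13 for Ap3b1.

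**Figure D4:**
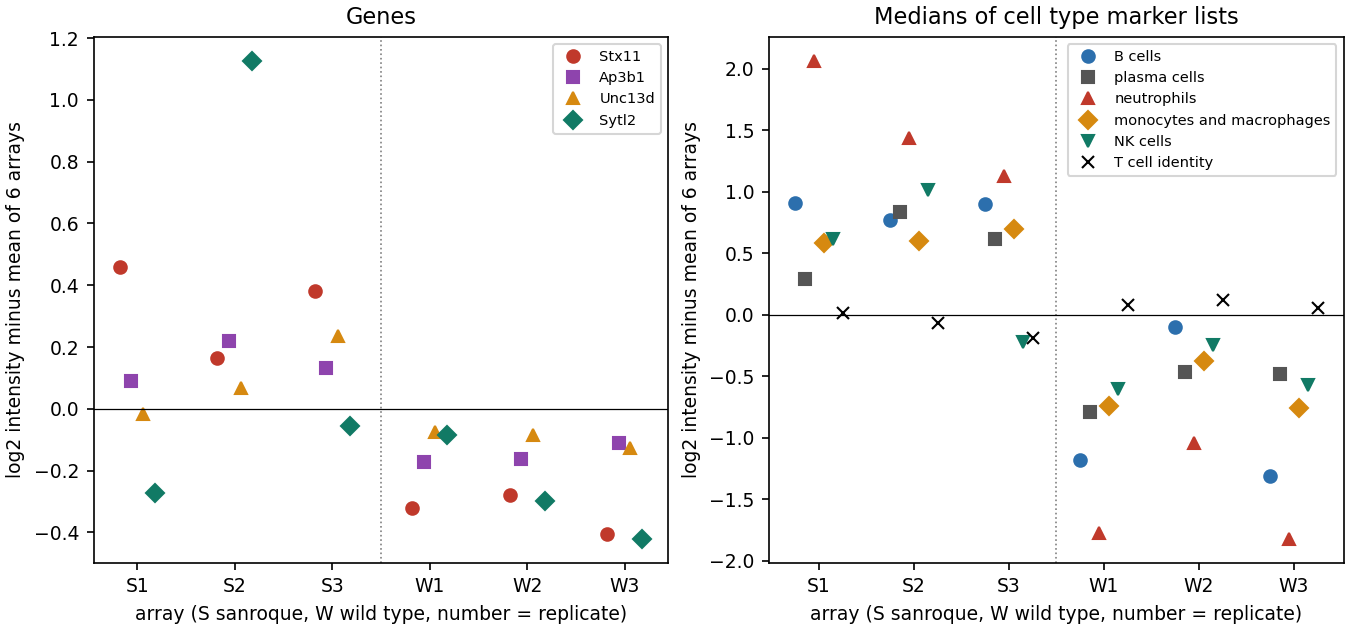
Log2 intensity minus the mean of the 6 arrays, for 4 genes on the left and for the medians of 6 cell type marker lists on the right, with sanroque arrays (S) before wild-type arrays (W). Stx11, Ap3b1 and the neutrophil, monocyte and B cell medians are higher on all 3 sanroque arrays, while the T cell median, at 12.43, 12.35 and 12.23 in sanroque and 12.50, 12.54 and 12.47 in wild type, is lower on all 3.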

How the data were processed

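For each array the authors deposited a linear intensity for every probe set. Per the labels' protocols, total RNA was turned into biotinylated cRNA. The submitters' processing notes name Partek without saying what it did. How background was corrected and how probes were summarized and normalized is not given in the sources used here. Array medians were 53.6 to 56.9 intensity units, and log2 values were taken without rescaling. The number of arrays limits the precision, and near the low end of the scale folds understate the change.

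Of 35399 probe sets, 21789 had exactly 1 symbol in the platform annotation. The RefSeq gene table of GRCm38.p6 supplied current symbols, and the brightest probe set of each gene was used. Sanroque was compared with wild type by limma 3.58.1 in R 4.3.3 (lmFit, eBayes, two-sided, Benjamini-Hochberg over 19938 genes), a fit also tested on simulated data. Figures were drawn with matplotlib 3.10.9. In the labels the samples are named as biological replicates.

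The 9 genes and all lists were chosen with earlier results of these data known. Named beside the 9 were, per list, the called genes (or the 2 with the smallest p), Gzma, Gzmb and Prf1, the 3 genes most like each called gene and the 2 highest markers of each cell type. Further genes were named after their values were seen. Alternatives covered probe set, filter, normalization, variance model, array weights, replicate block and left-out arrays.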

Additional observations from a re-analysis of the deposited data

How the results depend on the processing

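Over 15 alternatives Stx11 kept its direction, with log2 folds from 0.60 to 0.75, and passed limma's threshold in 12. Ap3b1 kept its direction in all 15, from 0.26 to 0.34, and passed in 3. The count of 2 called release genes was 1 with the most variable probe set, with only genes above the median level, with median centring and with the trend and robust variance model, 0 to 1 with single arrays left out, and 0 with sanroque replicate 1 and wild type replicate 2 both left out. The 7 called genes of the wider pathway were 11 after quantile normalization, 35 with array weights, which gave wild type replicate 1 a weight of 7.99, 0 to 8 with single arrays left out and 1 without both of those arrays. Over all genes the 1151 calls were 4733 with array weights, 218 to 1315 with single arrays left out and 353 without both. With the replicate number as a block they were 301 over all genes, 0 of the 9 and 0 of the wider pathway. The labels give no shared origin of same-numbered mice, so the numbers were not treated as pairs. Same-numbered arrays did not deviate together (r of -0.05, -0.16 and -0.36 over genes). Rab27a had a log2 fold of 0.16 with array weights and -0.19 to 0.071 with single arrays left out, Vamp7 of -0.20 to 0.045 with single arrays left out and 0.049 without both, and Vamp8 of -0.17 to -0.0052 with single arrays left out and 0.029 without both. With array weights Lyst also passed (log2 fold 0.32). Where fewer arrays were fitted, fewer were available to estimate the spread. For the other changes the cause was not tested.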
